A study of Homo sapiens with 8 samples.

Results

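The regions described here were 329 genomic regions with called peaks of HA-tagged ZNF676 in HEK293T cells. They overlapped no region called in H1 cells, and lay at promoters whose transcripts all start on a single DNA strand. They were defined by the measured peak calls and by gene annotation: overlapping peaks of the 3 HEK293T lists were joined into regions, those present in 2 or 3 lists were kept, regions overlapping an H1 region built in the same way were dropped, and a region was kept when it lay within 1 kb of transcription start sites (TSSs) of the plus strand or of the minus strand, but not of both. The 329 regions were 25.2% of the 1306 HEK293T consensus regions. Because presence in HEK293T and the lack of an H1 region chose them, neither is a finding here. The lack of a called region does not show that ZNF676 was not bound in H1.

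HEK293T is a human embryonic kidney cell line and H1 a human embryonic stem cell line. Both were transduced with a lentiviral vector and selected as stable lines overexpressing ZNF676 with 3 HA tags, fixed with formaldehyde and immunoprecipitated with an antibody against HA, so the protein bound in both lines was exogenous and overexpressed. In HEK293T the vector was doxycycline-inducible, whereas in H1 it was another vector, and duplicate reads were removed in the H1 libraries only. Cell line, vector and duplicate removal cannot be told apart in any contrast between HEK293T and H1. Each line had 3 immunoprecipitated libraries, described in the study as biological triplicates, and 1 input library, whose reads were not analysed here.

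ZNF676 is a KRAB zinc finger protein. Proteins of this family bind DNA through an array of zinc fingers and, through the KRAB domain, recruit a corepressor complex that deposits repressive chromatin, and most of them are known for binding transposable elements, in particular the long terminal repeats of endogenous retroviruses. A promoter is the stretch of DNA around a TSS at which transcription begins. At a bidirectional promoter transcription leaves in both directions from neighbouring starts, and at a one-strand promoter in one direction. Many human promoters lie in CpG islands, stretches rich in G, C and the dinucleotide CpG, which often hold GC boxes bound by Sp1 and related factors.

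A word of 7 bases, CCCTCGC, was more frequent near the centres of these regions than around other TSSs, as described below. The 8 highest-ranking members that held it within 100 bp of their centre are shown 5′ to 3′ in GRCh37 (hg19), on the strand that carries the word, with every copy of the word in capitals. Stretches that touched an annotated UTR were kept to the shortest form.
B4GALT5, chr20:48330522-48330582, plus strand: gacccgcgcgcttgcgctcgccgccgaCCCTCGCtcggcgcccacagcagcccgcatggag
GTF2I, chr7:74071748-74071808, plus strand: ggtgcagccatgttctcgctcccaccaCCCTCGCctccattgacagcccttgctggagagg
CYP26B1, chr2:72374890-72374950, minus strand: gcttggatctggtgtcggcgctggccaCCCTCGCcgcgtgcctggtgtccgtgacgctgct
P4HA1, chr10:74856687-74856715, plus strand: ggcgactgcagCCCTCGCtacgtgagctc
TARS3, chr15:102264628-102264656, minus strand: tgtccgcgtcgCCCTCGCcgcagtcgcgg
UVSSA, chr4:1341367-1341395, plus strand: ggtgcggcaggCCCTCGCctcatcccacc
KLHL11, chr17:40021041-40021101, plus strand: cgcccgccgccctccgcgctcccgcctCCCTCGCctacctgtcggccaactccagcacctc
PLK3, chr1:45265524-45265584, minus strand: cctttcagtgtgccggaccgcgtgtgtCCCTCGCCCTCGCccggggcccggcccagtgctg

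PLK3 held 2 overlapping copies. For comparison, 2 of the highest-ranking H1 regions that held the word and were similar to other H1 regions are shown in the same way.
H1 region, chr11:3609781-3609841, plus strand: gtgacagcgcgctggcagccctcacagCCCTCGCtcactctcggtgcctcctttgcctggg
H1 region, chr20:18207233-18207293, plus strand: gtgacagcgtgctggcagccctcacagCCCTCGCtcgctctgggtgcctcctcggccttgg

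Aligned on the word, these 2 H1 stretches were identical at 48 of the 54 bases outside it, whereas the 10 pairs of the 5 member stretches of the same length were identical at 13 to 23. The H1 stretches were chosen for similarity to other H1 regions and the member stretches by rank alone. Their contrast is in part set by that choice and describes these stretches only. Not all strong members held the word. The following 3 were the highest-ranking members without it that had at least 60 bases free of annotated UTR in their central 200 bp, and are shown on the strand of the gene with the GC box GGGCGG in capitals.
PTP4A2, chr1:32410123-32410202, minus strand: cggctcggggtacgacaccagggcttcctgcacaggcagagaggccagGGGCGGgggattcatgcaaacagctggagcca
RN7SL88P, chr12:96494887-96494966, minus strand: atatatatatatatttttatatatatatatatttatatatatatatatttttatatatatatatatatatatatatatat
NUP85, chr17:73201312-73201391, plus strand: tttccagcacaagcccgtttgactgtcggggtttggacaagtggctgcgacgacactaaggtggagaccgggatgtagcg

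The PTP4A2 stretch held 1 GC box. The RN7SL88P stretch was a repeat of T and A, unlike the G- and C-rich sequence of the other members shown.

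The 3 HEK293T lists held 1711, 1432 and 1257 peaks (replicates 1, 2 and 3), and 286, 303 and 270 of these lay in the 329 regions, or 16.7%, 21.2% and 21.5% of each list. The lists give a whole-number score per peak whose scale they do not state. The score was therefore used as deposited, or as a percentile rank within its own list, where 100 is the strongest peak. The lowest score was 80 in each of these 3 lists. The 3 H1 lists were shorter, with 637, 576 and 495 peaks. The study's methods name a single approximate depth for every ChIP-seq sample. How many reads each library kept after filtering was not known, so no depth of its own could be set beside a library's values.

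Of the 329 members, 200 had a peak in all 3 libraries and 129 in 2. Of the latter, 60 were found in replicates 1 and 2, 43 in replicates 2 and 3, and 26 in replicates 1 and 3. The share found in all 3 was 60.8% (95% CI 55.3 to 66.1), beside 57.4% (50.9 to 63.9) of the 235 HEK293T-only regions at bidirectional promoters and 55.1% (49.01 to 61.1) of the 274 HEK293T-only regions away from promoters. These intervals overlap. The 31 one-strand promoter regions that also had an H1 region were found in all 3 HEK293T libraries in 96.8% of cases (83.3 to 99.9). All such intervals are exact binomial (Clopper-Pearson) and cover counting error only, over regions that share the same libraries.

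The members were small and spread over 23 chromosomes. Their width was 144 to 1089 bp with a median of 355 bp, and together they covered 128375 bp. Chromosome 1 held 47, chromosome 2 held 30, chromosome 7 held 25 and chromosome 19 held 24. Chromosome 19, home to many zinc finger gene clusters, held 7.29% of members and 7.35% of all protein-coding gene symbols. The TSSs lay on the plus strand at 161 members and on the minus strand at 168.

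A TSS of a protein-coding gene was within reach at 283 of the 329 members. Of the 171556 annotated one-strand TSSs, 112432 were of protein-coding genes, a count per TSS rather than per region. A single gene was within reach at 304 members and 2 or more at 25, which gave 356 genes in all, of which 298 were protein-coding and 43 were long non-coding RNA genes. No protein-coding gene was within reach at 46 members. A TSS lay inside 212 members and outside 117. An exon with annotated UTR was overlapped by 198 members and another exon by 56, while 28 lay in introns and 47 upstream of every transcript. Coding sequence was overlapped by 97 members.

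Peak scores of the members were moderate within each list. Their median score was 166 in replicate 1, 164 in replicate 2 and 152 in replicate 3, and the highest were 2812, 2206 and 1576. The corresponding median percentile ranks were 45.1, 43.9 and 37.9. Averaged over the libraries in which a member was found, its rank had a median of 37.0 over the 329 members and ran from 0.664 to 94.0, with 98 members above 50, 26 above 75 and 3 above 90, and 79 below 25. The ranks of a member differed between libraries by a median SD of 9.38. Across members found in both libraries of a pair, Spearman's rho of the ranks was 0.700 for replicates 1 and 2 (260 members), 0.702 for replicates 1 and 3 (226 members) and 0.759 for replicates 2 and 3 (243 members). These are correlations across regions, which are not independent replicates.

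Members with a peak in all 3 libraries had median ranks of 54.4, 55.7 and 46.9, and those found in 2 had 28.2, 24.4 and 27.8. The members found in 2 libraries thus lay lower in each list. Presence in a list itself depends on the score, so this is a description. Members with a protein-coding gene had median ranks of 45.1, 44.5 and 38.1, and those without had 45.7, 38.7 and 34.4, so their order was not the same in the 3 libraries. Members that contained a TSS had 45.1, 43.2 and 35.3, below the 45.7, 45.4 and 41.9 of members beside one in each library. Neither difference was tested.

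The first comparison asked whether peaks at one-strand promoters differed in strength from those at bidirectional promoters, which the same peak rule had chosen and which differ by annotation only. The median ranks at one-strand promoters were 45.1, 43.9 and 37.9, and those at bidirectional promoters were 43.6, 44.6 and 39.9. The order of the 2 classes changed between libraries. The mean difference was -0.407 ± 1.73 percentile points (SD, n = 3; exact two-sided sign-flip permutation test over libraries, p = 0.75, adjusted p = 0.75 over the 6 differences tested). With 3 libraries this test cannot give a p below 0.25.

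Away from promoters the median ranks were 53.9, 43.9 and 39.0. The difference, one-strand promoters minus regions away from promoters, was -8.81 in replicate 1, 0 in replicate 2 and -1.07 in replicate 3, with a mean of -3.29 ± 4.81 (SD, n = 3; exact permutation p = 0.5, adjusted p = 0.6). The spread between libraries exceeded the difference. Leaving out 1 library gave -2.80 without HEK293T replicate 1, -1.92 without replicate 2 and -5.76 without replicate 3, and -7.09, -6.89 and -4.96 without H1 replicates 1, 2 and 3, so the size of the difference depended on single libraries. One-strand promoter regions shared with H1 had median ranks of 86.7, 87.4 and 84.5, given as a description, since overlap with H1 is what separates them from the members.

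**Figure D1:**
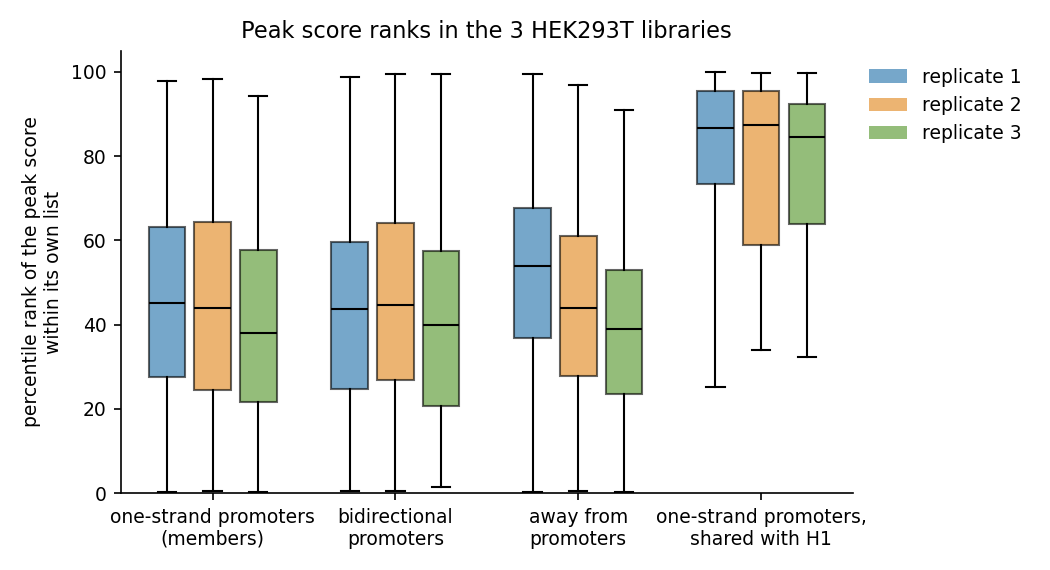
Percentile rank of the peak score within its own list (vertical axis) in HEK293T replicates 1 to 3, for the HEK293T-only regions at one-strand promoters, at bidirectional promoters and away from promoters, and for one-strand promoter regions shared with H1. Boxes span the 25th to the 75th percentile with the median as a line and whiskers reach the lowest and highest rank. Member medians of 45.1, 43.9 and 37.9 lie beside 43.6, 44.6 and 39.9 at bidirectional promoters, and below 86.7, 87.4 and 84.5 at the shared regions.

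Peaks at one-strand promoters were narrower than those at bidirectional promoters in each library. Their median widths were 333, 264 and 243 bp, compared with 357, 283 and 265 bp, a mean difference of -21.7 ± 2.52 bp (SD, n = 3; exact permutation p = 0.25, the smallest possible, adjusted p = 0.375). Compared with 324.5, 242 and 231 bp away from promoters, they were wider by a mean of 14.2 ± 7.01 bp (SD, n = 3; exact permutation p = 0.25, adjusted p = 0.375). Both differences had the same sign in 3 of 3 libraries and exceeded their SD. The second turned to -7.67 bp among the strongest 50% of each list. The libraries measured largely the same regions, so these SDs do not cover the spread between promoters. Replicate 1 had the widest peaks in all 3 classes.

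The rule kept regions within 1 kb on either side of a TSS, so closeness to the TSS was in part set by it, as was a median near 0, and the distances are a description. The median signed distance from TSS to peak centre, counted in the direction of transcription, was 1.5, 1 and 5 bp. On average 46.4% ± 2.42 of peak centres lay within 100 bp of the nearest TSS (SD, n = 3), 73.1% ± 0.500 within 250 bp and 85.8% ± 0.745 within 500 bp. The 5th and 95th percentiles averaged -528 and 759 bp, so the downstream tail was the longer one.

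Peak centres fell downstream of the TSS in 50.7%, 51.2% and 54.3% of cases. The mean of 52.0% was 2.04 ± 1.95 percentage points above 50% (SD, n = 3; exact permutation p = 0.25, adjusted p = 0.375), and with TSSs of protein-coding genes only the difference from 50% was -3.92 points. The side of the TSS was thus not resolved. The median unsigned distance was 106.5, 126 and 106 bp, beside 62, 81 and 64 bp at bidirectional promoters, a mean difference of 43.8 ± 1.61 bp (SD, n = 3; exact permutation p = 0.25, adjusted p = 0.375). Bidirectional promoters have TSSs on both strands by definition, and the number of TSSs within reach was not equalised.

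**Figure D2:**
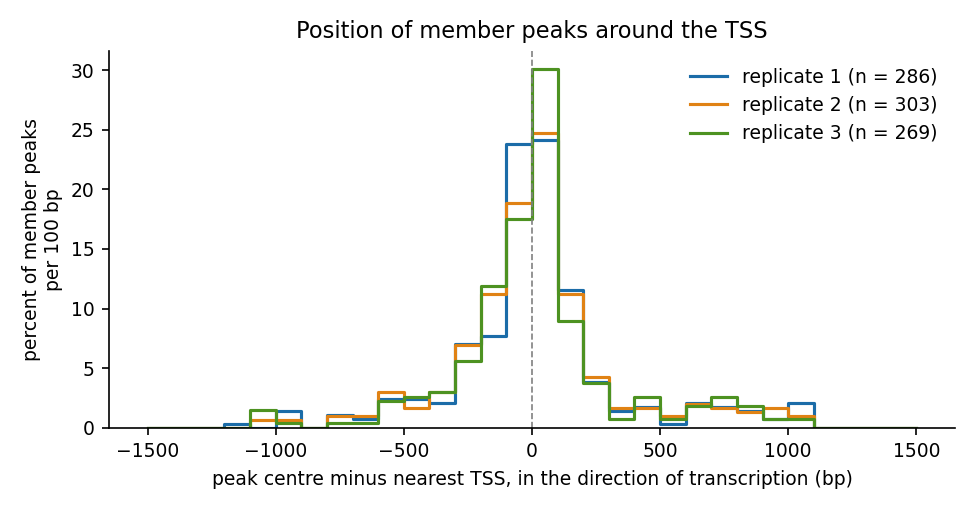
Distance of the peak centre from the nearest TSS in bp, positive in the direction of transcription (horizontal axis), against the percent of member peaks per 100 bp (vertical axis), with a line for each HEK293T replicate. The 3 lines peak at the TSS, where 46.4% of peak centres on average lie within 100 bp.

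The strongest member was CCNT1, which encodes cyclin T1, the regulatory subunit of the elongation factor P-TEFb. Its region, chr12:49110186-49110883, overlapped an exon with UTR and had scores of 1542, 2206 and 1576 in replicates 1, 2 and 3 (mean rank 94.0 ± 4.44, SD, n = 3). It was the highest-scoring member in replicates 2 and 3.

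PTP4A2, which encodes a protein tyrosine phosphatase, came next with 933, 1416 and 1525 (mean rank 90.4 ± 7.78, SD, n = 3; chr1:32409939-32410507, exon without UTR). RN7SL88P, a pseudogene of the 7SL RNA of the signal recognition particle, had 2812, 1138 and 776 (mean rank 90.1 ± 9.09, SD, n = 3; chr12:96494873-96495101). Its score in replicate 1 was the highest of any member. Its region, of which the repeat of T and A shown above is a part, lay 926 bp from the TSS and overlapped no transcript. The ranks of these 2 members did not differ beyond the spread between libraries.

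CDC42BPA, which encodes a kinase that acts downstream of the GTPase CDC42, had scores of 925, 1156 and 1030 (mean rank 87.1 ± 5.72, SD, n = 3; chr1:227505882-227506250). MRPS33, a protein of the small subunit of the mitochondrial ribosome, had 1157, 958 and 883 (mean rank 85.7 ± 3.08, SD, n = 3; chr7:140714724-140715182). Both regions overlapped an exon with UTR and contained the TSS.

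B4GALT5, a galactosyltransferase of glycolipid synthesis, had scores of 797, 867 and 1080 (mean rank 85.1 ± 4.88, SD, n = 3). The region, chr20:48330484-48330790, lay 69 bp from the TSS and upstream of every transcript. POLD3, a subunit of DNA polymerase delta, had 737, 1238 and 757 (mean rank 84.0 ± 8.82, SD, n = 3; chr11:74303619-74304172).

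NUP85, a nucleoporin of the nuclear pore scaffold, was the least even of the 10, with 398, 1709 and 976 (mean rank 83.5 ± 14.8, SD, n = 3; chr17:73200873-73201950). GTF2I, the general transcription factor TFII-I, had 710, 702 and 1090 (mean rank 82.9 ± 5.52, SD, n = 3), and its region chr7:74071469-74071976 lay in an intron 18 bp from the TSS. OSBPL1A, an oxysterol-binding protein family member that shared its region with the pseudogene RN7SL247P, had 901, 792 and 841 (mean rank 82.8 ± 2.42, SD, n = 3; chr18:21852000-21852354). From CDC42BPA down, neighbours in this order differed by less than their spread.

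**Figure D3:**
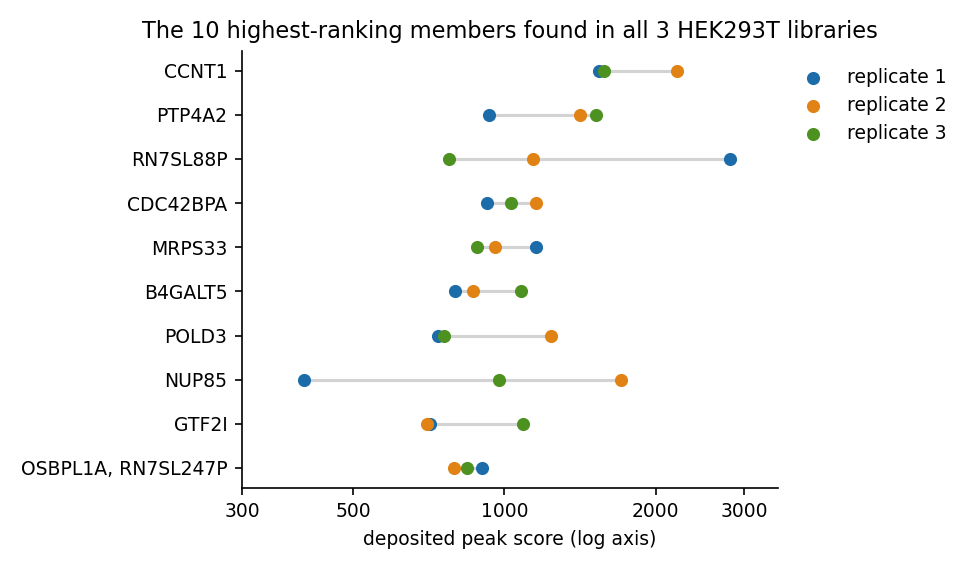
Deposited peak score on a log axis (horizontal) for the 10 members with the highest mean percentile rank among those found in all 3 HEK293T libraries (rows), with a point per replicate and a line from the lowest to the highest score. CCNT1 scored 1542 to 2206, RN7SL88P from 776 to 2812 and NUP85 from 398 to 1709.

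The other members whose sequences are shown above scored almost as high. CYP26B1, a cytochrome P450 that degrades retinoic acid, had scores of 807, 808 and 848. P4HA1, the catalytic subunit of a collagen prolyl hydroxylase, had 679, 979 and 613, and the threonyl-tRNA synthetase paralogue TARS3 had 857, 783 and 595. UVSSA, a factor of transcription-coupled repair, had 503, 1238 and 568, highest in replicate 2. PLK3, a stress-response kinase of the polo family, had 729, 542 and 626. These were named after their values were seen, as the highest-ranking members with the word.

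At the other end stood GADD45A, a growth arrest and DNA damage gene, with scores of 80 and 81 in replicates 1 and 2 and no peak in replicate 3. APOA1-AS, an antisense RNA gene at the apolipoprotein A1 locus, had 82 and 83, and DYNLT3, a dynein light chain, had 82 and 86, both likewise without a peak in replicate 3. These members sat at the floor of the lists and were in or out by a few score units. The widest members were SYCP2L, a paralogue of a synaptonemal complex protein, at 1089 bp and ZNF140 at 1081 bp, and the narrowest were the snRNA pseudogene RNU2-59P at 144 bp and the histone demethylase gene KDM6B at 171 bp.

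The 7-base word came from counting all words of 8 bases in the central 200 bp of members and around the one-strand TSSs of GENCODE. The 5 words with the largest difference in share were CCCTCGCC, in 13.1% of members and 1.56% of TSS windows, GCCCTCGC in 11.2% and 1.26%, CCCCGCCC in 17.3% and 9.49%, ACCCTCGC in 7.29% and 0.481%, and AGCGAGGG in 7.29% and 0.833%. The words were counted on both strands. CCCCGCCC holds a GC box, and the other 4 of the 5 hold CCCTCGC or its reverse complement. The word was chosen on these members, so its share in them is a description and was not tested.

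CCCTCGC lay in the central 200 bp of 82 of 329 members (24.9%, 95% CI 20.3 to 30.0). The 171556 one-strand TSS windows of the same length were centred on the TSS rather than on a peak. The word lay in 3.69% of them, and in 6.58% of those with a GC content between 60.5% and 69.5%, the middle range of the members. The windows in this GC range were not matched for CpG. Their median ratio of observed to expected CpG was 0.645, beside 0.802 in members. Among all 7658 words of 7 bases in members, CCCTCGC had the largest difference in share between members and all TSS windows. It therefore also led the 42 words with its letters. The word was chosen on these members, so this order is a description and no control for composition. The other words with its letters were in a median of 10.9% and at most 19.5% of members. In windows of the same length centred 400 bp to either side of the member centres CCCTCGC lay in 6.53% (4.77 to 8.70). The word was chosen on the central windows, so part of this gap is built in. When each library's own peak centres were used, the share was 25.2%, 24.1% and 27.1% (mean 25.5% ± 1.54, SD, n = 3).

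The word was not particular to one-strand promoters. It lay in 25.96% (20.5 to 32.1) of HEK293T-only regions at bidirectional promoters, and in 31.0% (25.6 to 36.9) of those away from promoters. By library peak centres these shares were 27.6% ± 1.46 and 32.1% ± 3.79 (SD, n = 3). It was held by 54.8% (36.03 to 72.7) of the 31 shared one-strand regions and by 58.3% (54.1 to 62.4) of the 554 H1 regions.

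The bases next to the word differed between the 2 sets of regions. CCCTCGCC was in 13.1% of members and 1.99% of H1 regions, whereas GCCCTCGC was in 11.2% of members and 55.1% of H1 regions, and AGCGAGGG, the reverse complement of CCCTCGCT, in 7.29% and 47.1%. At bidirectional promoters the shares of the same words were 14.0%, 9.36% and 8.51%, and away from promoters 4.01%, 24.8% and 23.0%. The members thus lay nearer to the bidirectional promoters than to the H1 regions in these shares.

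The word was denser at the region centre than further out. It was chosen for its share in the central 200 bp of members, so this profile is in part built in and is a description. Of 91 copies in the central 200 bp of members, in 82 members of which 9 held 2 copies, the median distance from the centre was 43 bp. Within 50 bp of the centre there were 17.6 copies per 100 members per 100 bp, whereas 50 to 150 bp away there were 7.29 on the left and 6.99 on the right, and further out 2.74 to 5.47. At bidirectional promoters the central value was 18.3 and away from promoters 28.5. Of the 91 copies, 40 (43.96%) lay on the strand of the gene.

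Members with the word did not rank higher by more than the spread between libraries. Their median ranks were 45.1, 51.9 and 39.0, beside 45.1, 42.1 and 36.5 for members without it, a mean difference of 4.10 ± 5.09 (SD, n = 3). Of members with the word 57.3% (45.9 to 68.2) were found in all 3 libraries, and of those without it 61.9% (55.6 to 68.0). Of the 10 strongest members named above, 2 held it, B4GALT5 and GTF2I.

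**Figure D4:**
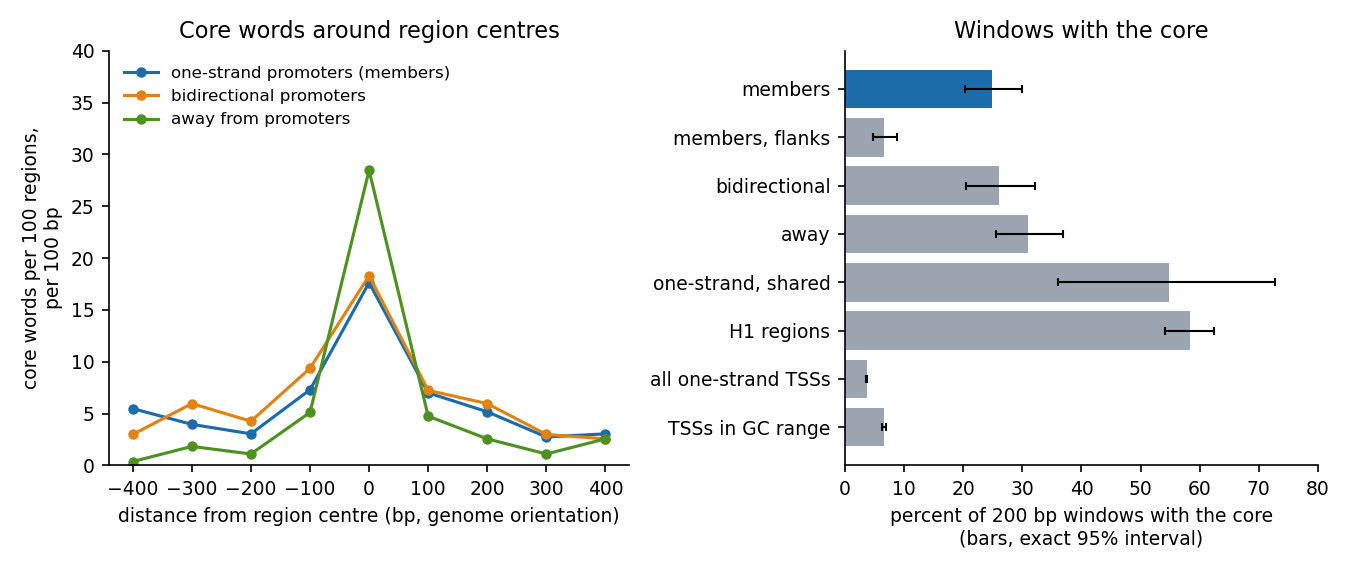
Left, copies of CCCTCGC (the core, both strands) per 100 regions in bins of 100 bp (vertical axis) against the distance from the region centre in bp (horizontal axis) for HEK293T-only regions at one-strand promoters, at bidirectional promoters and away from promoters, with central values of 17.6, 18.3 and 28.5. Right, percent of windows of 200 bp that hold it (bars, with exact 95% binomial intervals), from 24.9% of members and 6.53% of their flanks to 58.3% of H1 regions and 3.69% of all one-strand TSSs. The word was chosen on the central 200 bp of members, so their profile and share are descriptions.

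The members had the base composition of CpG-rich promoters. The median GC content of their central 200 bp was 65.5%, compared with 66% at bidirectional promoters, 57.5% away from promoters, 56.8% in the windows 400 bp to either side and 52.5% around all one-strand TSSs. The ratio of observed to expected CpG had a median of 0.802 in members, 0.854 at bidirectional promoters, 0.419 away from promoters and 0.351 around all one-strand TSSs.

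Of 9 known promoter motifs searched on both strands, the GC box GGGCGG was the most frequent, in 46.8% of members (95% CI 41.3 to 52.4). Around all one-strand TSSs it was in 22.8%, and around those in the members' GC range in 42.3%, so most of the gap closed at like GC content. By library peak centres it was in 45.2% ± 0.986 of members, 49.4% ± 0.971 of bidirectional promoter regions and 10.96% ± 1.96 of regions away from promoters (SD, n = 3). For this and the other motifs, member windows were centred on the region and TSS windows on the TSS. Member peak centres lay a median of 106 to 126 bp from the nearest TSS. The effect of this offset on the shares was not tested.

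CCAAT, the box bound by NF-Y, was in 16.1% of members (12.3 to 20.5), below the 24.1% around all one-strand TSSs. The 20.2% around those in the GC range lay within the members' interval, so no difference was resolved at like GC content. Member windows were not centred on TSSs, so members and TSSs were read at unlike positions. CCGGAA, the ETS motif, was in 11.6% of members (8.30 to 15.5), 18.7% of bidirectional promoter regions (13.9 to 24.3), 8.28% of all one-strand TSSs and 17.2% of those in the GC range. CCATNTT, the core of the YY1 motif, was in 6.69% of members (4.24 to 9.95), 14.1% of one-strand TSSs and 9.87% of those in the GC range. TATAAA was in 3.34% (1.68 to 5.90), 9.46% and 2.08%. For CCATNTT and TATAAA the members' intervals included the share in the GC range, so no difference was resolved at like GC content.

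The remaining motifs were scarce. CACGTG, the E-box, was in 5.47% of members (3.27 to 8.51), 3.97% of one-strand TSSs and 6.24% of those in the GC range. For GCGCATGC, the NRF1 motif, these shares were 3.04% (1.47 to 5.52), 1.26% and 2.89%. For TGAGTCA, the AP-1 motif, they were 3.04% (1.47 to 5.52), 3.25% and 2.23%. For TGACGTCA, the cAMP response element, they were 0.912% (0.188 to 2.64), 0.787% and 1.58%. Each of these members' intervals included the share in the GC range, so no difference was resolved at like GC content. A match is a match of letters and says nothing of which factor was bound.

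The H1 regions resembled one another in sequence. A region was called similar to this common sequence when blastn aligned at least 100 of its bases to at least 10 H1 consensus regions. By this measure 16 of 329 members were similar (4.86%, 95% CI 2.80 to 7.78), beside 1 of 235 regions at bidirectional promoters (0.426%, 0.0108 to 2.35), 118 of 274 away from promoters (43.1%, 37.1 to 49.2) and 470 of the 554 H1 regions themselves (84.8%, 81.6 to 87.7). Members were thus unlike regions away from promoters in this respect, with intervals that did not overlap. Without the 16, the 7-base word was in 78 of 313 members, again 24.9%.

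The 16 fell into 2 kinds. A total of 8 aligned to between 378 and 469 H1 regions: those at ENSG00000251567, ARRB2, LINC00508, ITPRID1, GBP5, MAP3K20-AS1, LINC00351 and MIR100HG, of which 3 were at a protein-coding gene and 4 held the word. The other 8 aligned to between 10 and 44 H1 regions, were all at protein-coding genes and held the word in 0 of 8 cases (95% CI up to 36.9%). Neither the repeat family nor the reason for the match was determined.

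ENSG00000251567, a long non-coding RNA gene, had scores of 674, 664 and 610 and matched 469 H1 regions (chr4:137316168-137316840, exon without UTR). ARRB2, which encodes beta-arrestin 2, had 533, 421 and 380 and matched 466 (chr17:4612686-4613185). CBX1, the heterochromatin protein HP1 beta, had 526, 439 and 437 and matched 18 (chr17:46178365-46179157). NUP85, already named, matched 44.

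In the gene lists, each read by symbol pattern, 292 of 20149 protein-coding gene symbols (1.45%) had a TSS at a member. Of 566 zinc finger genes (ZNF, ZFP, ZSCAN and ZKSCAN symbols) 18 did (3.18%, 95% CI 1.895 to 4.98), and the median of their mean ranks was 30.6, beside 37.0 over all members. The leading ones were ZNF583, with scores of 315, 567 and 682, ZFP36L1, an mRNA decay factor rather than a DNA-binding repressor, with 315, 433 and 350, and ZNF280C, with 264, 360 and 282. The others were ZFP30, ZNF140, ZNF180, ZNF211, ZNF264, ZNF501, ZNF527, ZNF549, ZNF564, ZNF616, ZNF675, ZNF678, ZNF736, ZNF846 and ZSCAN25. The word CCCTCGC was at 3 of the 18.

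Genes of transcription, replication and translation were represented by few members. Of 34 RNA polymerase subunit genes 3 were at members (8.82%, 1.86 to 23.7). The mitochondrial RNA polymerase POLRMT had scores of 718, 648 and 624, and POLR2J3, one of several near-identical copies of an RNA polymerase II subunit gene whose reads may be hard to place, had 122, 96 and 90. POLRMT scored above POLR2J3 in each of the 3 libraries.

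Of 40 replication genes 3 were at members (7.50%, 1.57 to 20.4). Beside POLD3 these were CDC7, the kinase that fires origins, with 238 and 185 and no peak in replicate 3, and MCM6, a subunit of the replicative helicase, with 113, 88 and 222. Of 35 aminoacyl-tRNA synthetase genes 2 were at members (5.71%, 0.700 to 19.2), IARS1 with 120, 118 and 124 and CARS2 with 86 and 95 in replicates 2 and 3. Both lay low in the lists. The paralogue TARS3, with 857, 783 and 595, was not counted, because the symbol pattern of the list does not match it.

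Of 39 HOX genes, which pattern the body axis, 4 were at members (10.3%, 2.87 to 24.2), in 3 regions. HOXB3 and HOXB6 shared 1 region with scores of 166, 172 and 113. HOXD8 had 153 and 114 in replicates 1 and 2, and HOXD11 had 113 and 86 in replicates 1 and 3. The intervals of the RNA polymerase, replication and HOX lists lay above 1.45%, but rested on 3 or 4 genes each. That of the zinc finger list, with 18 genes, also lay above 1.45%. These genes numbered 11 at the 200 members with a peak in all 3 lists, and 4 at the 120 members from the strongest 50% of each list. The share over all protein-coding symbols was not computed at those settings. The intervals were not adjusted for the 16 lists read, and genes of a cluster are not independent.

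The intervals of the other lists that had genes at members included 1.45%. There were 6 of 373 solute carrier genes, led by the glucose transporter SLC2A8 with scores of 1375, 989 and 290, which fell unevenly over the libraries, followed by the mitochondrial carriers SLC25A23 with 398, 486 and 368 and SLC25A53 with 257 and 145 in replicates 2 and 3. There were 3 of 215 ubiquitin ligase genes, KLHL11 with 635, 660 and 633, the conjugating enzyme UBE2Q1 with 428, 527 and 235, and TRIM9 with 237, 263 and 281. The scores of KLHL11 were the most even of these.

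Of 119 genes of cilia and flagella, 3 were at members (2.52%, 0.523 to 7.19), where DNAH14, a dynein heavy chain, had 122, 168 and 94, and CFAP298 and the readthrough gene CFAP298-TCP10L shared a region with 90, 127 and 122. MRPS33 was the single mitochondrial ribosomal gene of 78. UQCR11, a respiratory chain subunit (1 of 111), had 203, 251 and 143, and the splicing factor SRSF4 (1 of 86) had 485, 1271 and 835.

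No member lay at any of 85 cytosolic ribosomal protein, 90 histone, 50 proteasome, 56 translation initiation factor or 69 centromere and kinesin genes. The upper ends of their intervals were 4.25%, 4.02%, 7.11%, 6.38% and 5.21%, all above 1.45%, so lists of this size could not separate 0 from the background.

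**Figure D5:**
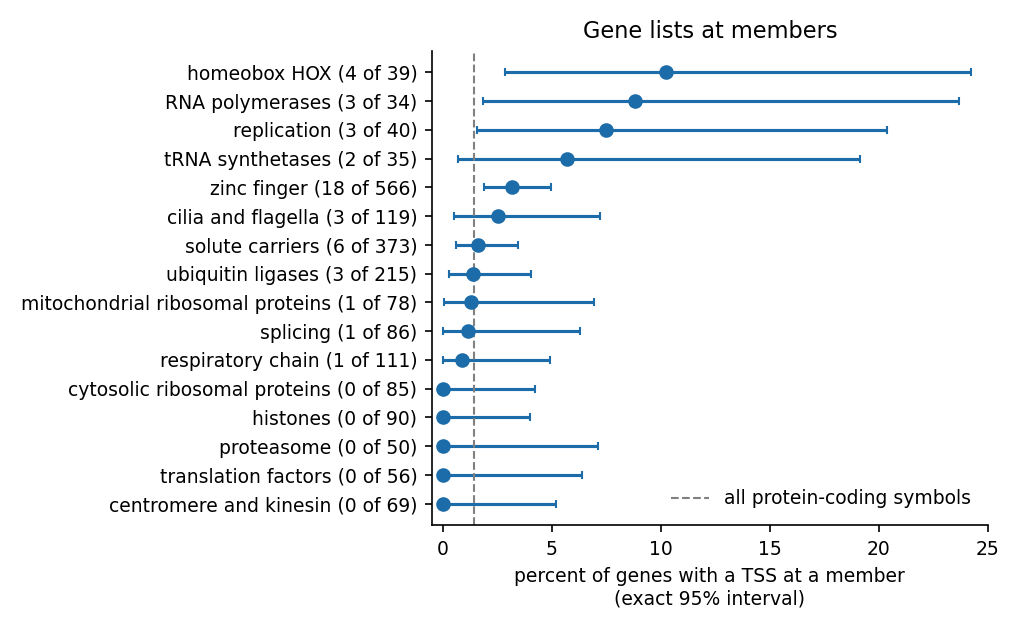
Percent of the genes of each list that have a TSS within 1 kb of a member (horizontal axis, points with exact 95% binomial intervals) for 16 gene lists (rows, with the number at members of the number in the list), beside 1.45% of all protein-coding symbols (dashed line). The zinc finger list stands at 3.18% with 18 genes, and 5 lists stand at 0.

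Members close to the thresholds of the rule were as follows. The largest gap between a member and its TSS was 971 bp at MAP3K20-AS1, with scores of 155 and 114 in replicates 1 and 3, followed by the 926 bp of RN7SL88P. Just outside, regions near TCF24 and ENSG00000285115 had gaps of 1018 and 1019 bp. Of the one-strand promoter regions dropped because they overlapped an H1 region, those with the smallest overlap were at NFRKB, 234 bp, and THBS1, 268 bp, so no region was dropped for an overlap of a few bases.

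A member could still have a peak in a single H1 list, and 5 did (1.52%, 95% CI 0.495 to 3.51). A peak in any H1 list lay at 3 of 235 HEK293T-only regions at bidirectional promoters (1.28%, 0.264 to 3.69) and at 43 of 274 away from promoters (15.7%, 11.6 to 20.6), so the members' share was near that of the bidirectional promoters and below that away from promoters. These were PTP4A2, GTF2I, MTMR7, CDC14B and WDR31, named by their genes. The H1 peaks had scores of 101, 197, 225 and 137 in H1 replicate 2 at the first 4, and 85 in H1 replicate 3 at WDR31. They lay between 0.404 and 24.0 on the percentile scale of their H1 list, whereas the HEK293T mean ranks of the same members were 47.4 to 90.4.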

How the data were processed

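ChIP-seq peak lists of 3 HEK293T and 3 H1 libraries were used, each with positions and a score as deposited by the authors. According to the study's methods and the labels, the authors aligned read pairs with Bowtie2 (hg19), filtered by mapping quality (minimum 10), blacklist and high-input regions, removed duplicates with Picard and samtools for H1 alone, and called peaks per library with MACS2 against the input of the cell line. The calling threshold is not given in the sources used here. Filtering by mapping quality lowers signal in near-identical sequence.

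Positions were checked against GRCh37 (0 of 6108 peaks ended beyond their chromosome) and printed counting from 1. Peaks overlapping by at least 1 bp were merged, and 0 consensus regions differed from those of bedtools 2.31.1. TSSs came from GENCODE 44 lifted to GRCh37. Motifs and composition were read in the 200 bp around the centre of a region or around a TSS. Similarity to H1 regions used blastn 2.17.0 (E at most 1e-10). Where a region held several peaks of a library, the one with the highest score was used. Differences of library medians were tested with exact two-sided sign-flip permutation over 3 libraries, with Benjamini-Hochberg adjustment over 6 tests. The steps were tested on simulated data. Software further comprised scipy 1.17.1, numpy 2.4.6, pysam 0.24.0, samtools 1.23.1, matplotlib 3.10.9 and Python 3.11.15.

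The members, gene lists and tests were chosen with earlier results of these data known, and the 7-base word after counting words in the members. Named were the 10 members of highest mean rank found in all 3 libraries, up to 3 per gene list, the 3 lowest, the 3 highest similar to H1 regions, those next to each threshold, the 2 widest and the 2 narrowest, and the members whose sequences are printed. The values of 1 member that this rule names are not reported here.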

Additional observations from a re-analysis of the deposited data

Results flagged for a closer look

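Peaks in a single H1 list entered no comparison, because an H1 region required 2 lists. Such peaks lay at 5 of the 329 members (1.52%, 95% CI 0.495 to 3.51), a share near the 1.28% (0.264 to 3.69) of HEK293T-only regions at bidirectional promoters. At PTP4A2 the H1 peak scored 101 and overlapped the member by 213 bp, at GTF2I 197 and 269 bp, at MTMR7 225 and 238 bp, at CDC14B 137 and 321 bp, and at WDR31 85 and 251 bp. Of these, 4 came from H1 replicate 2 and 1 from H1 replicate 3. Dropping every region with a peak in any H1 list left 324 members.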

How the results depend on the processing

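The number of members was 200 with a peak required in all 3 lists and 120 with the strongest 50% of each list. Leaving out HEK293T libraries gave 225 to 260 members and leaving out H1 libraries 330 to 332. The rank difference to bidirectional promoters reversed to 0.686 percentile points with all 3 lists, 0.261 with a TSS window of 500 bp, 3.00 with TSSs of protein-coding genes only, 0.489 with the strongest 50%, and 0.00254 on the log2 score. Without 1 library it ran from -2.92 (without HEK293T replicate 1) to 0.365 (without HEK293T replicate 3). The direction was therefore not settled. The width difference to regions away from promoters was -7.67 bp with the strongest 50%. The downstream share moved to -3.92 points from 50% with TSSs of protein-coding genes only. The share similar to H1 regions was 2.61% with those TSSs, 8.33% with the strongest 50%, 0.912% at 200 aligned bases and 2.43% at 50 H1 regions. Windows of 100 and 400 bp gave 6.99% and 32.5% for CCAAT, 25.2% and 70.2% for GGGCGG, and 14.9% and 31.9% for CCCTCGC, since a longer window holds more words. CCCTCGC was in 31.7% of members with the strongest 50%. Its alternatives were chosen after seeing the data. Zinc finger genes at members were 11 with all 3 lists and 4 with the strongest 50%, with no share over all symbols computed at these settings. Except for the effect of window length and of fewer regions, the cause was not tested. Of 138 alternative values, 114 kept the direction of a difference, or stayed within 1.5 times a count or within the interval of a share, but the size of differences moved. The rank difference to regions away from promoters ran from -7.09 to -1.92 and the downstream share from 0.962 to 4.53 points over 50% when 1 library was left out. No paired analysis was possible because no test compared the cell lines, which share the replicate numbers. This holds across cell lines only, and the differences tested within HEK293T were paired by library. The reads each library kept after filtering were not known.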

Other observations

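Members on the minus strand ranked higher than members on the plus strand in each HEK293T library, with median ranks of 47.3, 46.3 and 42.8 beside 41.6, 39.0 and 34.9. The 168 minus-strand members were found in all 3 libraries in 64.9% of cases and the 161 plus-strand members in 56.5%. CCCTCGC was in 29.8% (95% CI 23.0 to 37.3) and 19.9% (14.0 to 26.9), with overlapping intervals. This split was made after the values were seen and was not tested. Median GC content was 65.25% and 65.5%.

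The word CCCTCGC was in 34 of 117 members that did not contain a TSS (29.1%, 21.0 to 38.2) and in 48 of 212 that did (22.6%, 17.2 to 28.9), with overlapping intervals.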
